A study of Mus musculus with 3 samples.

Results

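The 10 genes described here belong to the prostanoid pathway and were followed through 3 cultures of C2C12 mouse muscle cells: 7 enzyme genes (Ptgs1, Ptgs2, Ptgis, Ptges, Ptgds, Tbxas1 and Hpgd) and 3 receptor genes (Ptger2, Ptger4 and Ptgir). They were taken as a named set, and every non-control array probe whose accession belonged to one of them was read. This gave 14 probes for the 10 genes, of 41174 non-control probes and 18350 named genes on the array. The set was proposed with results of these arrays in view, among them the low Ptgis signal of the third culture, so the members' values are a description and carry no test.

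Prostanoids are short-lived lipid signals made from arachidonic acid. The cyclooxygenases Ptgs1 and Ptgs2 turn arachidonic acid into prostaglandin H2, and a terminal synthase then turns this common intermediate into a particular product: Ptgis makes prostacyclin, Ptges prostaglandin E2, Ptgds prostaglandin D2 and Tbxas1 thromboxane A2. The products leave the cell and act through G protein-coupled receptors, of which Ptgir binds prostacyclin and Ptger2 and Ptger4 bind prostaglandin E2, and Hpgd begins the breakdown of prostaglandins that are taken up again. In skeletal muscle, prostaglandins are known for roles in myoblast proliferation, fusion and repair after injury.

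RNA was measured on one-colour Agilent whole mouse genome arrays, with 1 array per group and 200 ng of total RNA per labelling. C2C12 is an established line of mouse myoblasts that fuse into multinucleated myotubes when serum is lowered. The myoblast group was untreated. The group called BIO cellulates came from myotubes formed over 8 days in 2% horse serum, with 10 µM AraC, which kills dividing cells, from day 2 to day 4. The myotubes were split into mononucleate pieces, called cellulates, with myoseverin, a microtubule-binding compound, over 48 h. BIO, an inhibitor of the kinase GSK-3, was given for 2 days, starting 24 h after myoseverin. Whether those 24 h ran from the start or the end of myoseverin is not settled here. The sources disagree on doses: BIO is 2.5 µM in the sample labels and 10 µM in the series text and protocol, and myoseverin is 20 µM in the series text and 30 µM in the protocol. The group called neurogenic cellulates had the same history, then 250 nM reversine for 48 h and 7 days in DMEM/F12 with N2 and 1.5 µM all-trans retinoic acid. Untreated myotubes and cellulates without BIO are not analysed here, so muscle differentiation, AraC, myoseverin and BIO cannot be told apart in the first step, and neither can the new medium, reversine, retinoic acid and elapsed time in the later one.

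A single array per group gives no spread between cultures, no p-value and no replicate check, and how many cultures were pooled is not given in the sources used here. The scanner marked 45.7% to 50.7% of 43379 non-control spots per array as well above background and none as saturated. Intensities below are the scanner's background-subtracted values with the scanner's own error for that spot. A level is log2 intensity minus the log2 75th percentile of the array, and a fold is the difference of 2 levels. Probes spotted 10 times and well above background gave a 95% limit for a difference between single spots. It was 1.40-fold for the myoblast and BIO arrays, 1.32-fold for the BIO and neurogenic arrays and 1.35-fold for the myoblast and neurogenic arrays. The limit was calculated from the SD within each array, taken as normal and averaged over probes, and is not fitted to dim spots. This covers spot error only. A gene well above background on 1 of 2 arrays has a fold that is a bound ("at least"), taken against the detection limit of the dim array, its lowest well-measured spot, or against the dim spot itself if that was brighter. A call is a fold of at least 2.

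The cultures carried their muscle markers: all 6 of Myod1, Myog, Des, Pax7, Ckm and Acta1 were well above background on every array, with summed intensities of 13861 in myoblasts, 136920 in BIO cellulates and 186054 in neurogenic cellulates. Acta1 made up most of each cellulate sum, at 3655, 127539 and 164878, whereas Myod1 (277.5, 226.8 and 233.2) and Pax7 (52.5, 55.5 and 61.3) were within 2-fold after scaling. The sums follow the same order as Ptgs1 below, and their part in that result was not tested. Of the markers of other cells that make prostanoids, none of 6 endothelial genes (Pecam1, Cdh5, Kdr, Tek, Tie1, Emcn) was above background on any array, with summed intensities of 51.2 in myoblasts, 55.2 in BIO cellulates and 68.6 in neurogenic cellulates. Of 7 haematopoietic genes with a probe, Cd14 and Csf1r were above background on all 3 arrays and Ptprc, Adgre1, Itgam, Pf4 and Lyz2 on none, with sums of 1593, 717 and 705 in the same order. Of the glial and meningeal markers, Gfap and Mbp were above background on all 3 arrays, Mog on the BIO array alone and Ttr on none. Sums of intensity are not scaled between arrays.

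Of the 10 genes, 6 were well above background somewhere. Ptgs1, Ptgis, Ptgds, Tbxas1 and Ptgir were so on all 3 arrays, Ptges was so in BIO cellulates alone, and Ptgs2, Hpgd, Ptger2 and Ptger4 were so on none. From myoblasts to BIO cellulates, 3 of 6 measured members (Ptgs1, Tbxas1 and, as a bound, Ptges) were at least 2-fold higher and 0 were at least 2-fold lower, where 11.2% of all 12828 genes compared were higher and 6.01% lower. From BIO to neurogenic cellulates, 0 of 6 were higher and 1 (Ptgis) was lower, where 4.16% of 12255 genes were higher and 1.8% lower. Between the ends of the series, neurogenic cellulates against myoblasts, 2 of 5 were higher (Ptgs1 and Tbxas1) and 1 was lower (Ptgis), where 12.1% of 12853 genes were higher and 10% lower. Median log2 ratios of the measured members were 0.82, -0.22 and 0.03, and those of all genes compared were 0.00, -0.17 and -0.06. This last comparison shares both its arrays with the other two and adds no measurement of its own.

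**Figure D1:**
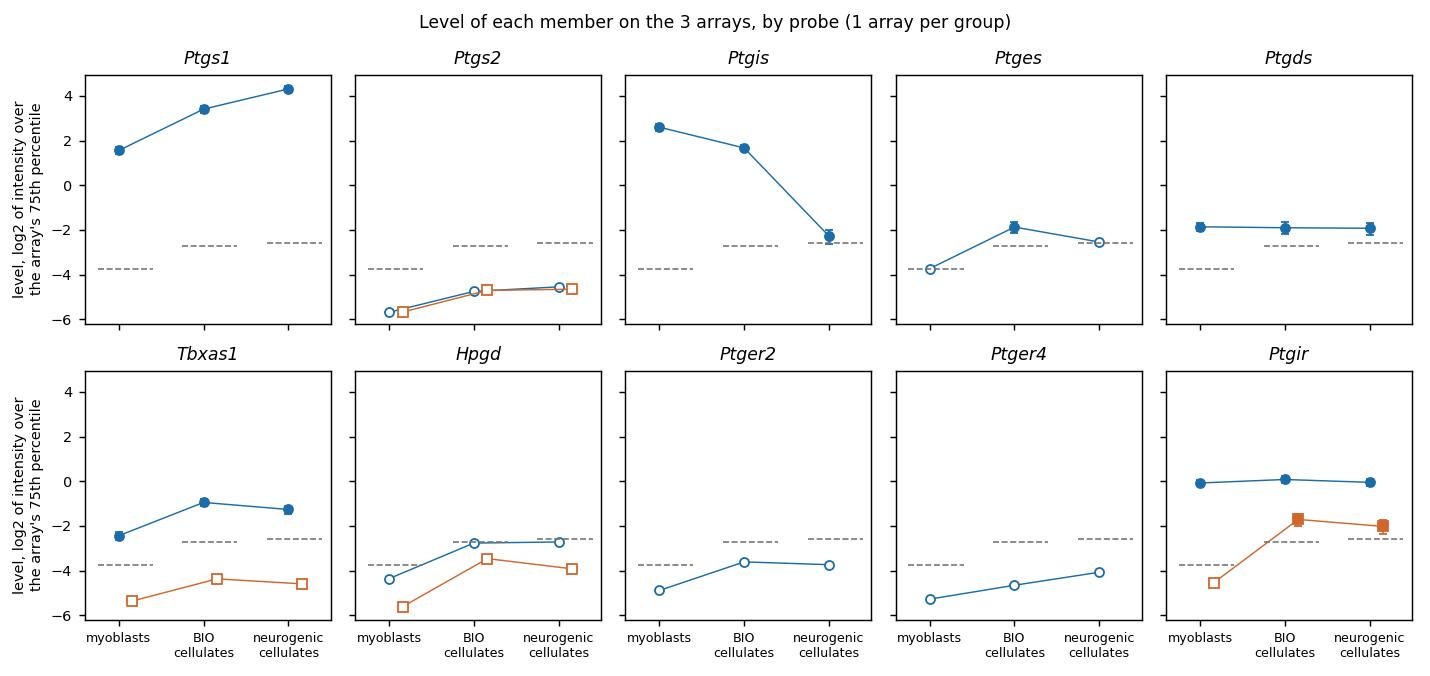
Level of each of the 10 genes (log2 intensity over the array's 75th percentile, vertical axis) on the 3 arrays (horizontal axis), 1 array per group; circles are the brighter or sole probe and squares the second probe, filled where well above background. Bars on filled points are the scanner's error for the spot and dashed lines the lowest signal well above background; Ptgs1 climbs from 1.56 to 4.31, Ptgis drops from 2.60 to -2.28 beside the dashed line, and Ptgs2, Hpgd, Ptger2 and Ptger4 have open symbols throughout.

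Ptgs1 and Ptgs2 catalyse the same step, and only the Ptgs1 probe gave a measured signal on these arrays. The 250 bases before the start of each gene are shown because one gene was measured on all 3 arrays and the other on none. They come from RefSeq on GRCm38.p6, in which 9 of the 10 genes (all but Ptgis) were matched, Ptgs1 from the plus strand at chr2:36230176-36230425 and Ptgs2 from the plus strand at chr1:150099781-150100030, and capitals mark a GC box (GGGCGG).
Ptgs1: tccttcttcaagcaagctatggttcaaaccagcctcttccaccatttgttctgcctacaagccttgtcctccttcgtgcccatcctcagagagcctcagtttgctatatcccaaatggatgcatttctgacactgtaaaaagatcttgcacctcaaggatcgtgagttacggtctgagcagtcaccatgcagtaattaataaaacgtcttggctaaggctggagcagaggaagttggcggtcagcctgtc
Ptgs2: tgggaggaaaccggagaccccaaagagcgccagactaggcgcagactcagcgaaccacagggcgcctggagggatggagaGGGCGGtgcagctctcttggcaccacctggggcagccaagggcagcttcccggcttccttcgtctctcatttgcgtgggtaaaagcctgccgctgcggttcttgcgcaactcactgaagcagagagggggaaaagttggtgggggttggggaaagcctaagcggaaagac
The Ptgs1 stretch has a GC content of 48% and the Ptgs2 stretch 61.6%. The motifs searched, on both strands of the 300 bases that add the first 50 bases after the start, were the TATA box (TATAAA), the cAMP response element (TGACGTCA), its shorter core (TGACG, also found inside the full element), the E-box (CACGTG), the CCAAT box, the GC box (GGGCGG) and the core of retinoic acid receptor sites (AGGTCA). Ptgs1 held none of them. Ptgs2 held the GC box at base -170, a motif present in 35.7% of 32851 mouse promoters of this length. In the first 50 bases after its RefSeq start, which are not printed, Ptgs2 also held TGACG on the minus strand at base 14 (20.8% of promoters), overlapping CACGTG at base 17 (7.15%). Positions are counted from the RefSeq start alone, and where transcription starts in these cells was not measured. A match is a description of letters, and the arrays measured no binding.

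Ptgs1, the cyclooxygenase that many tissues make constantly, read 532 ± 53.3 intensity units in myoblasts, 1218 ± 122 in BIO cellulates and 3091 ± 309 in neurogenic cellulates. Its levels were 1.56, 3.41 and 4.31 on the log2 scale, so it was lowest in myoblasts and highest in neurogenic cellulates, and no neighbouring pair lay within the spot error. The fold was 3.61 higher in BIO cellulates than in myoblasts (log2 1.85 ± 0.20, scanner error), 1.87 higher in neurogenic than in BIO cellulates (log2 0.91), and 6.76 higher in neurogenic cellulates than in myoblasts (log2 2.76 ± 0.20). Among genes measured on both arrays this placed Ptgs1 as the 167th highest of 11184, the 318th highest of 10875 and the 122nd highest of 10885. The second step missed 2-fold with the scaling used here and passed it with 4 others, the highest being a log2 ratio of 1.27 with spike-in scaling. Ptgs1 was read by 1 spot of 1 probe on each array.

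Ptgs2, the inducible cyclooxygenase of inflammation and injury, was not well above background with either of its probes. The probe spotted 10 times averaged 3.51 in myoblasts, 4.25 in BIO cellulates and 6.64 in neurogenic cellulates, which was 0.258, 0.246 and 0.253 times the detection limit of the same arrays. The second probe read 3.53, 4.39 and 6.17. The first probe thus lay at nearly the same small share of the detection limit in each culture, and no fold is given.

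Ptgis, the prostacyclin synthase, was lower where Ptgs1 was higher. It read 1096 ± 110 in myoblasts, 365 ± 36.8 in BIO cellulates and 32.1 ± 7.13 in neurogenic cellulates, with levels of 2.60, 1.67 and -2.28. It was 1.91-fold lower in BIO cellulates than in myoblasts (log2 -0.93 ± 0.20), which is beyond the spot error and short of the 2-fold call, and ranked 818th lowest of 11184. It was then 15.4-fold lower in neurogenic than in BIO cellulates (log2 -3.95 ± 0.35), the lowest ratio of 10875 genes measured on both arrays. Against myoblasts the neurogenic value was 29.4-fold lower (log2 -4.88 ± 0.35), 2nd lowest of 10885.

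The size of the Ptgis difference depended on the background correction, and its direction did not. The neurogenic signal was 1.23 times the lowest signal called well above background there, and the median pixel values before subtraction were 1085.5, 425 and 108.5 over local backgrounds of 30, 28.5 and 24. With the normexp background correction in place of the scanner's, the log2 ratio of neurogenic to BIO cellulates was -2.26 instead of -3.95, and over all settings it ran from -4.15 to -2.26. Each Ptgis value rests on 1 spot of 1 probe. In these whole-culture RNA samples, fewer cells making a transcript and less of it per cell cannot be told apart.

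Tbxas1, the thromboxane synthase, which is best known from platelets and macrophages, read 33.4 ± 4.29 in myoblasts, 59.7 ± 6.91 in BIO cellulates and 64.9 ± 8.35 in neurogenic cellulates with its brighter probe. Its levels were -2.44, -0.95 and -1.26, so both cellulate cultures lay above myoblasts and differed from each other by less than the spot error. The fold over myoblasts was 2.81 in BIO cellulates (log2 1.49 ± 0.25) and 2.26 in neurogenic cellulates (log2 1.18 ± 0.26), while the neurogenic to BIO log2 ratio was -0.32.

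Those Tbxas1 folds sit in a dim range where the genes as a whole were shifted. When genes measured on both arrays were cut into 4 equal groups by brightness, Tbxas1 lay in the dimmest, in which the median log2 ratio of BIO cellulates to myoblasts was 0.47 and 19.2% of its 2796 genes passed 2-fold on the higher side and 2.00% on the lower. For neurogenic cellulates against myoblasts the dimmest group had a median of 0.39, with 19.6% higher and 2.76% lower. The second Tbxas1 probe, at 4.41, 5.56 and 6.45, was not well above background on any array. Scaled to array medians the log2 ratio over myoblasts was 0.77 in BIO cellulates and 0.45 in neurogenic cellulates, both under 2-fold, and with normexp correction it was 0.82 and 0.62. With quantile normalisation the neurogenic ratio was 0.79 and with the median over probes 0.97. Of the 7 haematopoietic markers with a probe, Cd14 was within 2-fold in BIO cellulates (log2 -0.66) and lower in neurogenic cellulates (-1.14), and the brightest Csf1r probe stayed at 0.31 and -0.18. The other Csf1r probes gave 0.32 and 0.53, and 1.34 and 1.00, so that one of them was higher to a degree near that of Tbxas1. The remaining 5 markers were below the detection limit in each culture, and the part of these markers in the Tbxas1 result was not tested.

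Ptges, the inducible prostaglandin E synthase, was above background in BIO cellulates alone, at 31.3 ± 5.32, and not in myoblasts (13.6 ± 3.68) or neurogenic cellulates (26.7 ± 7.10). Its BIO signal was at least 3.63-fold that of myoblasts and its neurogenic signal at least 1.59-fold lower than in BIO cellulates, with no fold between the outer cultures. The lower bound was a log2 ratio of -0.67, and was within the spot error with spike-in scaling (-0.30) and normexp correction (-0.33). The neurogenic spot was 1.02 times the detection limit there. Median pixel values before subtraction were 103 in BIO and 103.5 in neurogenic cellulates. Bounds over myoblasts passed almost without exception: of 499 genes measured in BIO cellulates but not in myoblasts, 498 passed 2-fold. The detection limit after scaling was -3.73 in myoblasts and -2.73 in BIO cellulates. With normexp correction the Ptges bound was a log2 ratio of 0.83.

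Ptgds, the lipocalin-type prostaglandin D synthase, kept one level to within the spot error with the scaling used here. It read 49.8 ± 6.28, 30.7 ± 5.68 and 40.9 ± 7.88, and after scaling its levels were -1.86, -1.90 and -1.93, with log2 ratios of -0.04, -0.02 and -0.07 in the 3 comparisons. The sign of each changed with the scaling, over ranges of -0.76 to 0.34, -0.20 to 0.34 and -0.80 to 0.46. The ratios of -0.76 and -0.80, with array-median scaling, and of 0.46, with spike-in scaling, were beyond the spot error. Ptgds was also dim, at 3.66, 1.78 and 1.56 times the detection limit. It lay in the dimmest brightness group, as Tbxas1 did, where the median log2 ratios over myoblasts were 0.47 in BIO and 0.39 in neurogenic cellulates. Hpgd, the dehydrogenase that inactivates prostaglandins, was dim on all 3 arrays: its brighter probe read 8.82, 16.9 and 23.7 and the other 3.70, 10.4 and 10.3.

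Of the receptor genes, Ptgir, the prostacyclin receptor, was the one measured. Its brighter probe read 172 ± 17.5 in myoblasts, 122 ± 13.0 in BIO cellulates and 151 ± 16.6 in neurogenic cellulates, with levels of -0.08, 0.08 and -0.05. No pair of those differed beyond the spot error, and log2 ratios were 0.16, -0.13 and 0.03, with signs that changed with the scaling. The dimmer Ptgir probe did not give the same picture. It was not above background in myoblasts (7.73 ± 4.01) and was so in BIO cellulates (35.2 ± 6.08) and neurogenic cellulates (38.4 ± 8.07), which set bounds of at least 4.07-fold and at least 3.28-fold over myoblasts and a log2 ratio of -0.31 between the cellulates. Whether Ptgir differed between myoblasts and cellulates thus depends on the probe, and the dimmer one gives bounds only. Bounds of this kind passed 2-fold for 498 of 499 genes in BIO cellulates and 539 of 539 in neurogenic cellulates. Passing 2-fold therefore says little about this probe.

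Both prostaglandin E2 receptor genes stayed under the detection limit. Ptger2 read 6.11, 9.42 and 11.7 and Ptger4 4.67, 4.56 and 9.25 in myoblasts, BIO cellulates and neurogenic cellulates. Ptger3, another receptor for the same ligand, was not above background either. These values set no level and no fold.

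**Figure D2:**
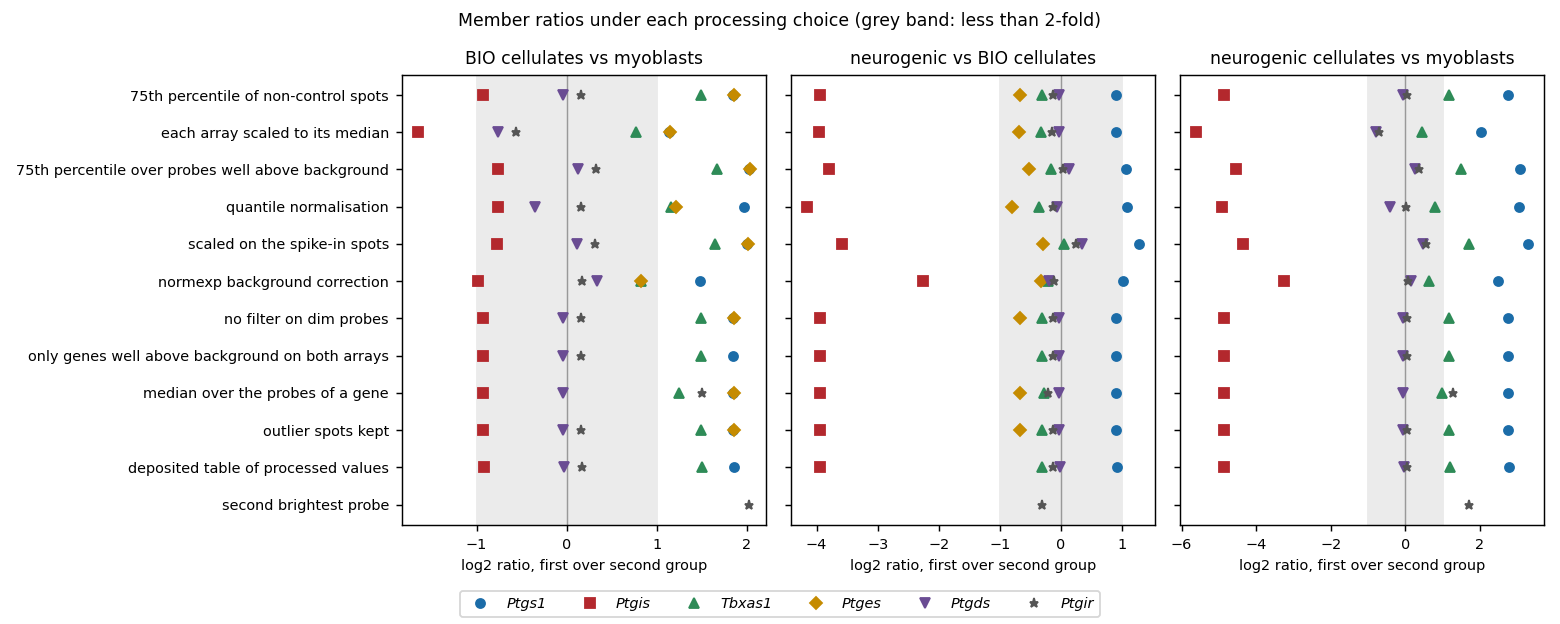
Log2 ratio of each measured member (horizontal axis, first over second group) under the processing used here (top row) and under 11 alternatives (other rows), in 3 panels for the 3 comparisons; the grey band marks less than 2-fold and each symbol is 1 gene. Ptgis stays left of the band in both neurogenic panels, from -4.15 to -2.26 against BIO cellulates, Ptgs1 stays to the right against myoblasts, and Ptgds moves across 0.

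The wider pathway was read from lists of genes grouped by role. All list counts are to be read against the shares of all genes given above. These were 11.2% higher and 6.01% lower in BIO cellulates against myoblasts and 4.16% and 1.8% in neurogenic against BIO cellulates. In neurogenic cellulates against myoblasts they were 12.1% and 10%. Among 7 other prostanoid synthase genes, 5 were measured, and 1 was at least 2-fold higher in BIO cellulates than in myoblasts with 0 lower, at a median log2 ratio of 0.32. That gene was Akr1c18, an aldo-keto reductase that acts on prostaglandins and on progesterone. It read 23.0 in myoblasts, 2026 in BIO cellulates and 1361 in neurogenic cellulates, with log2 ratios of 7.12, -1.01 and 6.10, so it was high in both cellulate cultures. The -1.01 passed 2-fold by a narrow margin and was -0.64 with spike-in scaling. The haematopoietic prostaglandin D synthase gene Hpgds was not well above background. From BIO to neurogenic cellulates the list counted 0 higher and 1 lower of 5 (median -0.35), and from myoblasts to neurogenic cellulates 1 higher and 0 lower (median 0.04).

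Of 18 genes that release or handle arachidonic acid, 14 were measured. Of these, 2 were higher and 1 lower from myoblasts to BIO cellulates (median 0.08), 0 higher and 1 lower from BIO to neurogenic cellulates (median -0.10), and 2 higher and 1 lower across both steps (median 0.01). The lower gene was the same at each step. Mgll, the monoacylglycerol lipase that frees arachidonic acid from the endocannabinoid 2-AG, read 2474, 496 and 174, with log2 ratios of -1.66, -1.95 and -3.61, and a second probe gave -1.48, -1.98 and -3.46. Mgll was thus lowest in neurogenic cellulates, as Ptgis was, and with agreement between its 2 measured probes. The secreted phospholipase genes Pla2g2e (log2 1.88, -0.21 and 1.67) and Pla2g2f (1.12 in BIO cellulates over myoblasts) were on the higher side, as was Pla2g4b (1.22 in neurogenic cellulates over myoblasts). These phospholipase calls were lost under array-median scaling except that of Pla2g2e in BIO cellulates. Pla2g4a, the cytosolic phospholipase that supplies the cyclooxygenases, stayed within 2-fold at -0.74, 0.66 and -0.08.

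Of 9 other genes of prostanoid receptors and their partners, 5 were measured against myoblasts and 4 between the cellulates. By the brightest probe, none was at least 2-fold different in BIO cellulates against myoblasts (median 0.00) or in neurogenic against BIO cellulates (median -0.42). Ptgfrn, a membrane protein that associates with the prostaglandin F2α receptor, was lower in neurogenic cellulates than in myoblasts at a log2 ratio of -1.52, and its second probe gave -2.01. In BIO cellulates against myoblasts that second probe was already past 2-fold at -1.20, where the first gave -0.81. The probes of Ptgdr2, a prostaglandin D2 receptor gene, disagreed there, at -0.37 for the brighter and 1.04 for the other. By its brighter probe Ptgfrn was the 1 gene of 5 past 2-fold in neurogenic cellulates against myoblasts, at a list median of -0.11, and was at -0.99 with spike-in scaling. Ptgfr, the prostaglandin F2α receptor gene, and Ptgdr, another prostaglandin D2 receptor gene, were below the detection limit.

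Of 8 genes for transport and breakdown, 1 was higher and 1 lower of 5 measured in BIO cellulates against myoblasts (median 0.37), with the same counts in neurogenic cellulates against myoblasts (median 0.00) and 0 of 4 in either direction between the cellulates (median -0.05). Slco2a1, the transporter that takes prostaglandins into cells, was measured in both cellulate cultures and not in myoblasts. Its log2 bounds of 1.32 and 1.51 fell under 2-fold with 3 settings each. Nearly all such bounds over myoblasts passed 2-fold, as given for Ptgir. Slco3a1, an organic anion transporter, was lower at log2 ratios of -1.41 and -1.47, the latter -0.95 with spike-in scaling.

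The sister branches of arachidonic acid metabolism are read against the shares of all genes given above, 11.2% higher and 6.01% lower in BIO cellulates and 12.1% and 10% in neurogenic cellulates against myoblasts. Of 15 leukotriene and lipoxygenase genes, 12 were measured: 3 higher and 1 lower in BIO cellulates against myoblasts (median 0.60), 0 of 12 in neurogenic against BIO cellulates (median -0.27), and 3 higher and 2 lower in neurogenic cellulates against myoblasts (median 0.23). Cysltr1, a receptor for cysteinyl leukotrienes, was higher at log2 2.23 and 2.21 over myoblasts, Ggt1, which trims leukotriene C4, at 1.64 and 2.37, and Mgst2, a microsomal glutathione transferase that can make leukotriene C4, at 1.20 and 1.48. Cysltr1 and Ggt1 lay in the dimmest brightness group, as Tbxas1 did, in both comparisons with myoblasts. There the shares of genes at least 2-fold higher were 19.2% in BIO and 19.6% in neurogenic cellulates, with median log2 ratios of 0.47 and 0.39. Lta4h, the leukotriene A4 hydrolase, was lower at -1.28 and -1.79, and Ltb4r2, a receptor for leukotriene B4, was lower at -1.23 in neurogenic cellulates. Of 8 epoxygenase and hydrolase genes, 4 were measured, and Ephx1, the microsomal epoxide hydrolase, was the 1 called, higher in neurogenic cellulates by log2 1.36 over BIO cellulates and 1.66 over myoblasts, with 1.41 and 1.89 from its second probe. The list medians were 0.43, -0.05 and 0.59. Some of these calls were lost under other settings, where the smallest ratios over myoblasts were 0.48 and 0.75 for Mgst2, 0.76 for Ggt1 in BIO cellulates, 0.99 for Cysltr1, -0.70 for Ltb4r2 and 0.93 for Ephx1 in neurogenic cellulates.

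Prostacyclin and prostaglandin E2 receptors can raise cyclic AMP, so 19 genes of the cAMP response were listed as well. Of these, 2 were higher and 2 lower of 14 measured in BIO cellulates against myoblasts (median -0.10), 0 of 14 in neurogenic against BIO cellulates (median -0.08), and 3 higher and 2 lower of 15 in neurogenic cellulates against myoblasts (median -0.23). Nr4a1, an immediate early nuclear receptor gene, was higher at log2 3.32 and 2.81 over myoblasts and Adcy6, an adenylate cyclase gene, at 1.05 and 1.01. Adcy6 lay in the dimmest brightness group, as Tbxas1 did, in both comparisons with myoblasts. Prkar1a, a regulatory subunit of protein kinase A, had a bound of 1.57 in neurogenic cellulates, where 539 of 539 such bounds over myoblasts passed 2-fold. On the lower side were Areg, an EGF family growth factor (bounds of -3.39 and -3.15), and the phosphatase gene Dusp1 (-1.12 and -1.10). The immediate early genes Fos and Nr4a3 were below the detection limit throughout. Over the settings tried, the smallest ratios were 0.33 and 0.28 for Adcy6, -0.95 and -0.57 for Dusp1 and 0.53 for Prkar1a, all under 2-fold.

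**Figure D3:**
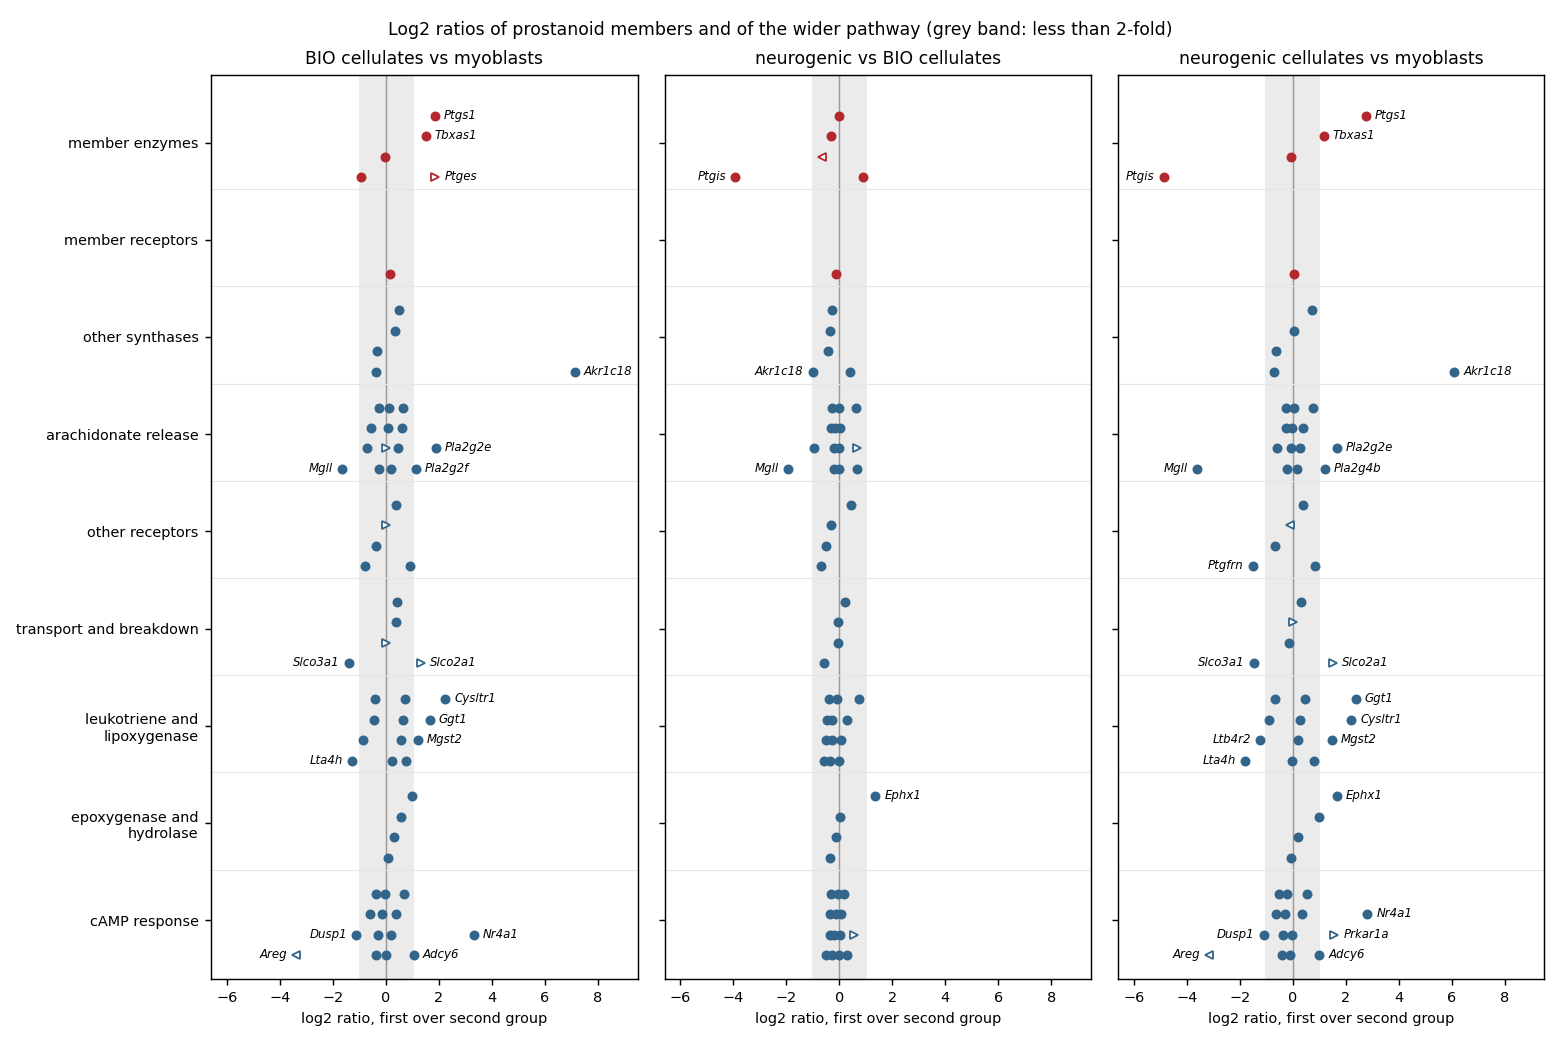
Log2 ratios (horizontal axis, first over second group) of the measured members (red) and of 7 lists of the wider pathway (blue) in 3 panels for the 3 comparisons; 1 symbol is 1 gene, circles are genes measured on both arrays, open triangles are bounds pointing away from the dim group, and vertical position within a list only separates the symbols. Genes outside the grey band are at least 2-fold different and named, among them Ptgis at -3.95 and Mgll at -1.95 in neurogenic against BIO cellulates and Akr1c18 at 7.12 in BIO cellulates against myoblasts.

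Among members whose brighter or sole probe was measured on all 3 arrays, Ptgis, Ptgs1 and Tbxas1 had the widest ranges. The genes nearest to each were found among 10665 genes measured on all 3 arrays, by the Euclidean distance between their 2 log2 ratios, from myoblasts to BIO cellulates and from BIO to neurogenic cellulates. Ptgis, chosen for its low neurogenic value, had no gene within 0.25 log2 units. Its nearest were Tagln, the actin-binding smooth muscle protein transgelin, at a distance of 1.56, Dner, a transmembrane Notch ligand, at 1.69, and Postn, the matrix protein periostin, at 1.71. Log2 ratios from BIO to neurogenic cellulates were -2.39 for Tagln, -2.28 for Dner and -2.48 for Postn. Ptgis had the lowest ratio of all genes measured on both arrays at this step, so any other such gene was bound to be less low. With normexp correction the gap to Ptgis was smaller, at -2.26 for Ptgis, -2.15 for Tagln, -1.65 for Dner and -1.80 for Postn. Over all settings the Dner ratio at this step ran from -2.29 to -1.05.

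Tagln is also on the list of smooth muscle and fibroblast markers, cells that are known to make prostacyclin. Of those 8 markers, 7 were well above background on all 3 arrays and Pdgfra was on none. Their summed intensity was 194429 in myoblasts, 81276 in BIO cellulates and 71268 in neurogenic cellulates. These sums are not scaled, and the 75th percentiles of the arrays were 181, 115 and 156 in the same order. From myoblasts to neurogenic cellulates, Tagln (-3.20), Cnn1 (-2.34) and Col1a1 (-1.70) were at least 2-fold lower and 0 of 7 were higher. Pdgfrb (-0.55), Myh11 (0.05), Acta2 (0.42) and Thy1 (0.68) were within 2-fold, though a second Acta2 probe was just past 2-fold lower. From BIO to neurogenic cellulates, the step with the larger Ptgis difference, 1 of 7 was at least 2-fold lower, Tagln (-2.39). Cnn1 (-0.96), Col1a1 (-0.45), Acta2 (-0.23), Thy1 (-0.14), Myh11 (-0.12) and Pdgfrb (-0.04) were within 2-fold there. The second Acta2 probe gave -1.07 at that step. The part of these markers in the Ptgis result was not tested.

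Ptgs1 had 5 genes within 0.25. The nearest were Mapt, the microtubule protein tau, at 0.027, Tnfrsf11b, the decoy receptor osteoprotegerin, at 0.090, and Bfsp2, a lens filament protein, at 0.17. Like Ptgs1 they were higher at each step, but the second brightest Bfsp2 probe gave log2 ratios of -0.10 and -0.39 over myoblasts in BIO and neurogenic cellulates. Tbxas1 had 152 genes within 0.25, the nearest being Dcaf5, a ubiquitin ligase adaptor, at 0.013, Gk, glycerol kinase, at 0.017, and Agbl4, a carboxypeptidase, at 0.018. Each likeness rests on 3 arrays.

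**Figure D4:**
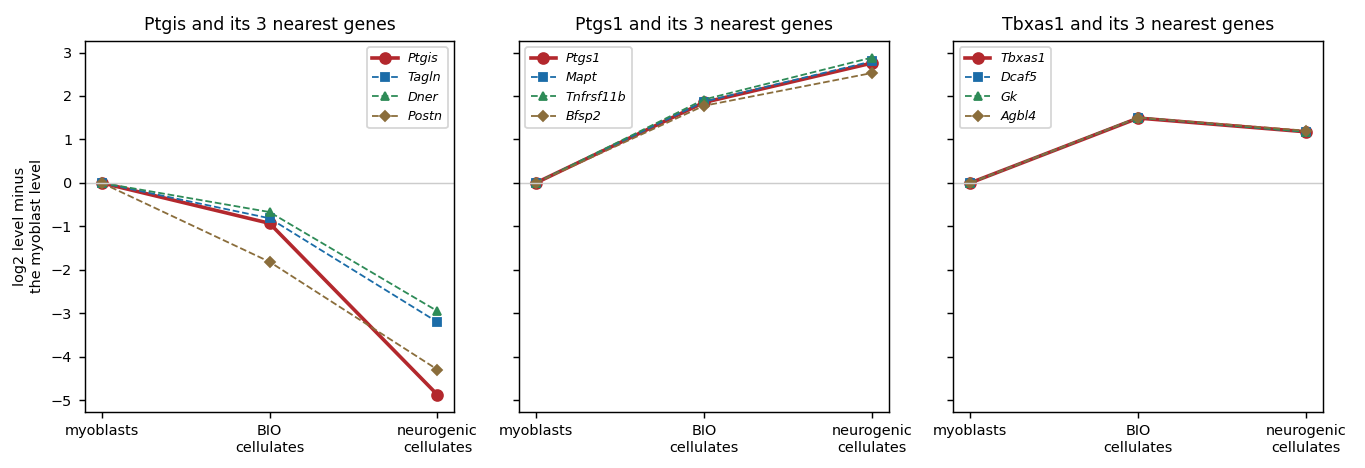
Log2 level minus the myoblast level (vertical axis) on the 3 arrays (horizontal axis) for Ptgis, Ptgs1 and Tbxas1 (thick red lines) and the 3 genes nearest to each (dashed lines), 1 array per group. Ptgis ends at -4.88, below Tagln at -3.20, Dner at -2.95 and Postn at -4.30, whereas the lines of Tbxas1 and its neighbours lie on top of each other.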

How the data were processed

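The 3 one-colour Agilent arrays, 1 per group, were used with groups taken from the sample labels. Spot values are background-subtracted, detrended linear intensity, deposited by the authors and written, per the file headers, by Agilent Feature Extraction 10.7.3.1 for array design 014868 and build mm9. The authors' deposited table holds log2 values that equal log2 intensity plus a constant per array (0.00 for myoblasts, 0.67 for BIO and 0.23 for neurogenic cellulates). It served as an alternative.

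Control and outlier spots were left out, repeat spots were averaged as log2, and each array was scaled to its 75th percentile (181, 115 and 156 intensity units). Accessions named 26918 of 41174 probes through RefSeq (GRCm38.p6). A gene took its brightest probe by mean over the 3 arrays. Named are all members and their probes, listed pathway genes at least 2-fold different, cell markers, and the 3 genes nearest to each of the 3 widest-ranging members measured on all 3 arrays. A listed marker is not reported here. The members and lists were chosen with earlier results of these data known. Promoter motifs were chosen by hand, AGGTCA after the arrays were read. Python 3.11.15, pandas 2.3.3, R 4.3.3 and limma 3.58.1 (normexp, offset 50) were used, and the ratio step was tested on simulated data. With 1 array per group there was no test, and 13 alternatives were tried.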

Additional observations from a re-analysis of the deposited data

How the results depend on the processing

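In the comparisons where they were called, Ptgs1, Ptgis, Tbxas1 and Ptges kept their direction under each alternative that gave them a new ratio. The second brightest probe and the other fold limits gave no new ratio. Between the cellulates, where Tbxas1 was not called, its log2 ratio was -0.32 and became 0.05 with spike-in scaling. Counts moved. Members at least 2-fold higher in BIO cellulates than in myoblasts were 3, 2 with array-median scaling, with genes measured on both arrays alone or with the deposited table, 4 with the median over probes, 5 when dim probes were kept, 1 with normexp correction, 1 with the second brightest probe and 0 at 4-fold. Members lower there were 0, and 1 with array-median scaling and 1 at 1.5-fold (Ptgis in each). Members higher in neurogenic than in BIO cellulates were 0, and 1 (Ptgs1) with the 75th percentile over probes well above background, quantile normalisation, spike-in scaling, normexp correction or 1.5-fold. Members lower there were 1, and 0 with the second probe and 2 at 1.5-fold. Members higher in neurogenic cellulates than in myoblasts were 2, and 1 with array-median scaling, quantile normalisation, normexp correction, the second probe or 4-fold, and 7 with no filter. Members lower there were 1, and 0 with the second probe, which Ptgis lacks. The causes were not tested, beyond fewer genes having a second probe. The median of all genes in the 3 comparisons was 0.01, -0.18 and -0.15 over genes measured on both arrays, -0.71, -0.19 and -0.88 with array-median scaling and 0.17, 0.19 and 0.37 with spike-in scaling. Higher genes were 65.1%, 69.9% and 54.7% of all calls, against 9.07%, 68.6% and 11.5% with array medians, 77.1%, 82.1% and 77.7% with the percentile over measured probes, 50.4%, 73.6% and 55.4% with quantile normalisation, 76.1%, 92.5% and 86.2% with spike-ins, and 29.1%, 74.1% and 31.4% with normexp. All-gene counts higher and lower were 1440 and 771, 510 and 220, and 1557 and 1291, against 369 and 3701, 502 and 230, and 649 and 4997 with array medians, 301 and 734, 200 and 70, and 527 and 1149 with normexp, 1818 and 570, 980 and 80, and 2859 and 457 with spike-ins, and 4385 and 1029, 1032 and 619, and 5118 and 1538 with no filter. No paired analysis was possible because each group has 1 array.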
